A study of Homo sapiens with 9 samples.

Results

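The genes described here are the granins, the peptide precursor NPY and the enzymes and helper proteins that cut prohormones in secretory vesicles. They were chosen by symbol, as a list of 10 genes (CHGA, CHGB, SCG2, SCG3, SCG5, VGF, NPY, PCSK1, PCSK1N and PCSK2), and 8 of the 10 were read from a table of 25084 genes. The expression of NPY and PCSK2 was not analysed here, and only their promoter sequences were searched. RNA had been sequenced from LAN5, an established human neuroblastoma cell line with an amplified MYCN gene, 72 h after siRNAs were introduced by electroporation. The 9 libraries formed 3 groups of 3: a control siRNA (siCTR), 1 siRNA against MYCN (siMYCN, labelled siMYCN_2) and 1 siRNA against HAND2 (siHAND2, labelled siHAND2_3). The stated purpose was to find genes under the control of these 2 transcription factors. Each target was lowered with a single siRNA in a single cell line, so the loss of a target and any other action of that siRNA cannot be told apart. The labels do not say whether the libraries came from separate cultures, and p-values then measure only the spread between these libraries.

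Granins are acidic proteins that are packed into dense-core secretory vesicles, where they help to condense the cargo and are themselves cut into peptides. Prohormone convertases (PCSK1 and PCSK2) cut precursors at pairs of basic residues, carboxypeptidase E trims the exposed ends, and PAM amidates many of the products. Sympathetic neurons, chromaffin cells and the tumours that arise from them store catecholamines and neuropeptides in such vesicles, and circulating CHGA is a long-used marker of neuroendocrine tumours. Of the 10 genes, 7 belong to the granin family (CHGA, CHGB, SCG2, SCG3, SCG5, VGF and PCSK1N). SCG5 encodes 7B2, the chaperone of PCSK2, and PCSK1N encodes proSAAS, which can inhibit PCSK1.

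Promoter sequence from RefSeq (GRCh38.p14) was matched for 8 of the 10 genes, all but CHGB and SCG2. Both targets of the siRNAs encode basic helix-loop-helix factors, which bind E-boxes, so the 250 bases before each start site were searched for the general E-box CANNTG and for CACGTG, the form preferred by MYC proteins and a special case of the first. They were also searched for TGACGTCA, the cAMP response element that several granin genes carry. Each pattern reads the same on both strands. Of 35116 promoter windows of this length, 61.8% held CANNTG, 6.34% held CACGTG and 1.65% held TGACGTCA. The 200 bases upstream of VGF, CHGA and PCSK1N are shown, since these 3 genes behaved differently from one another in the knockdowns. Matches to the patterns are in capitals, the last base printed is base -1, and positions give the first base of a match.
VGF (chr7:101165570-101165769, minus strand): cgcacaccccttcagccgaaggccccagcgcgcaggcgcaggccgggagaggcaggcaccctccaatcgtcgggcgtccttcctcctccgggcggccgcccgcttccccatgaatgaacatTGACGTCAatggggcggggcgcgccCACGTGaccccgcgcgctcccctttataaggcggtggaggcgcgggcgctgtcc
CHGA (chr14:92922950-92923149, plus strand): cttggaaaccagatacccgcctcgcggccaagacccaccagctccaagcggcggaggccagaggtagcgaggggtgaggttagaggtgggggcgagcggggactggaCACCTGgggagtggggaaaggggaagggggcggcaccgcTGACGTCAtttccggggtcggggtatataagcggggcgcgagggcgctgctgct
PCSK1N (chrX:48835611-48835810, minus strand): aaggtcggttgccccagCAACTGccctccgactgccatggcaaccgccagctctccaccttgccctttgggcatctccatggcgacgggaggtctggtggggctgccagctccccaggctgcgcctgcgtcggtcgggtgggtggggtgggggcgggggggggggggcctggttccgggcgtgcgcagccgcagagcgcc

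VGF held TGACGTCA at -79 and CACGTG at -54. CHGA held TGACGTCA at -54 and the E-box CACCTG at -93, and PCSK1N held the E-box CAACTG at -183. TGACGTCA was also found upstream of 1 of 2 start sites of PCSK1, at -77. E-boxes were also found upstream of the other PCSK1 start site (-167), SCG3 (-226 and -174) and SCG5 (-64). None was found upstream of NPY or PCSK2. CACGTG was found upstream of VGF and of none of the other 7 genes matched. These matches describe the letters of the windows and were not tested for binding.

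Values were CPM (reads per gene scaled to the size of the library), and tests were made on log2(CPM + 1), a scale that understates the change of genes near 1 CPM. The reads assigned to genes came to 21.1 to 32.7 M per library. MYCN fell in siMYCN to 70.0% of its siCTR mean (limma adjusted p = 7.15e-07), and HAND2 fell in siHAND2 to 54.2% (1.25e-10). MYCN also fell in siHAND2, to 49.6% (1.72e-10), so the siHAND2 libraries had less of both transcripts and of MYCN less than the siMYCN libraries. Both genes overlap an antisense gene (MYCNOS and HAND2-AS1), and the use of strand in counting is not given in the sources used here, so reads of the pairs may not be separated. MYCNOS averaged 45.7, 61.7 and 27.9 CPM in siCTR, siMYCN and siHAND2. HAND2-AS1 averaged 293, 305 and 440 CPM, beside 501 CPM of HAND2 in siCTR, and rose in siHAND2 (0.58, limma adjusted p = 5.56e-07), so how far its reads enter the 54.2% was not tested. None of the 10 sympathoadrenal marker genes stayed under 1 CPM throughout, and by the mean over all 9 libraries the list was led by ELAVL4, NCAM1 and STMN2. In siCTR alone DBH, which makes noradrenaline (263 ± 18.2 CPM), stood above STMN2 (177 ± 11.2 CPM). TH, the first enzyme of catecholamine synthesis, averaged 2.95 ± 0.363 CPM in siCTR. No gene of the Schwann and glial list (6 of 7 in the table) or of the endothelial and immune list (5 of 7) passed the filter of 1 CPM in at least 3 libraries, and their highest values were 1.25 and 1.19 CPM.

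In control cells the granin transcripts covered a wide range. Per kilobase of the canonical GENCODE transcript, CHGA was the most abundant in siCTR, at 188 ± 8.09 CPM per kb (SD, n = 3 libraries, as for all CPM values and shares below). CHGB followed at 93.7 ± 8.06 CPM per kb and SCG2 at 65.6 ± 1.90. SCG3, a granin that anchors other granins to vesicle membranes, measured 34.8 ± 1.09 CPM per kb, VGF 28.0 ± 2.69 and PCSK1N 23.6 ± 1.38. The ranges of neighbours in this order did not overlap, though VGF (25.1 to 30.4) and PCSK1N (22.1 to 24.8) lay close. SCG5 (0.214 ± 0.126 CPM per kb) and PCSK1 (0.0187 ± 0.0160) lay far below the rest. The convertase PCSK1 and the PCSK2 chaperone were thus near the limit of detection in cells that carried far higher levels of the other granins.

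In siMYCN the order of the means was that of siCTR, except that VGF and PCSK1N both averaged 32.5 CPM per kb. In siHAND2, SCG2 measured 201 ± 16.9 CPM per kb, above CHGB at 91.6 ± 9.32 with no overlap. Its range (185 to 219) overlapped that of CHGA (165 to 195), which averaged 178 ± 15.3. PCSK1N averaged 25.2 ± 3.55 CPM per kb in siHAND2 and VGF 20.9 ± 3.04, the reverse of their order in siCTR, with overlapping ranges (21.2 to 27.8 and 17.3 to 22.7). In bulk RNA, fewer cells that express a gene and less RNA per cell cannot be told apart, which holds for every difference below.

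**Figure D1:**
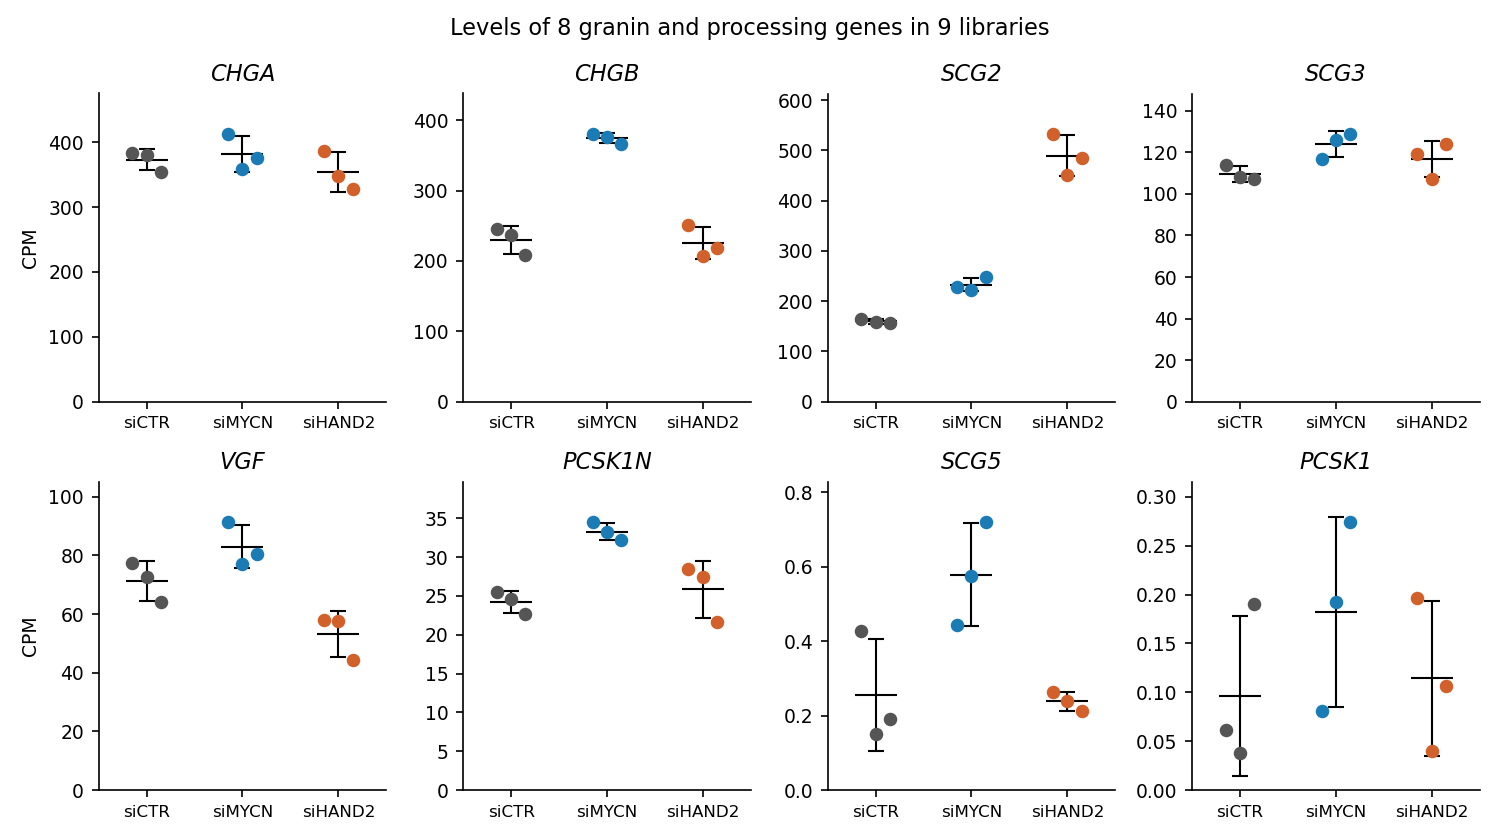
CPM of 8 genes (one panel each, linear axis from 0) in the 3 libraries of siCTR, siMYCN and siHAND2; points are libraries, horizontal bars are group means and error bars are SDs. SCG2 is highest in siHAND2 and CHGB and PCSK1N are highest in siMYCN, while CHGA overlaps between all groups.

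Of the 8 genes in the table, 6 passed the filter and were tested. In siMYCN against siCTR, 4 of the 6 rose (CHGB, SCG2, PCSK1N and SCG3) and none fell, with a limma adjusted p (Benjamini-Hochberg over 14495 genes) under 0.05. Over all genes tested, 35.9% were called in this comparison, 24.5% higher and 11.4% lower. In siHAND2 against siCTR, 1 rose (SCG2) and 1 fell (VGF), where 29.9% of all genes were called, 18.1% higher and 11.8% lower. In siHAND2 against siMYCN, 1 was higher (SCG2) and 3 were lower (CHGB, VGF and PCSK1N), where 26.9% of all genes were called, 11.4% higher and 15.5% lower. The median log2 fold change of the 6 genes was 0.33, 0.02 and -0.24 in the 3 comparisons, beside 0.06, 0.04 and -0.01 over all genes tested. Both comparisons with siCTR use the same 3 control libraries.

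The division of all calls into rises and falls depended on how the libraries were scaled. With the deposited CPM, rises made up 68.3% of the calls in siMYCN, against 50.6% after median-ratio scaling and 49.3% after quantile normalization. The same shares were 60.6%, 45.6% and 47.8% in siHAND2 against siCTR, and 42.4%, 48.7% and 51.9% in siHAND2 against siMYCN.

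Marker lists were read in the same libraries. Over all genes tested, 24.5% rose and 11.4% fell in siMYCN, and 18.1% rose and 11.8% fell in siHAND2. All 10 sympathoadrenal markers rose in siMYCN (median 0.39), and their summed level was 2203 to 2310 CPM in siCTR, 2818 to 2868 in siMYCN and 2358 to 2478 in siHAND2. In siHAND2 3 of them rose (STMN2, ISL1 and GAP43) and 4 fell (DBH, TH, PRPH and DDC), with a median of -0.03. Of 10 fibroblast and mesenchymal markers 8 were tested. In siMYCN 6 of these rose and none fell (median 0.56). In siHAND2 6 rose and 2 fell (CD44 and THY1), with a median of 0.99. The 2 left out by the filter were COL1A1 and PRRX1, with lower means in both knockdowns. COL1A1 averaged 0.72, 0.507 and 0.363 CPM in siCTR, siMYCN and siHAND2, and PRRX1 0.704, 0.382 and 0.494. DCN stayed under 1 CPM in siCTR (highest 0.522) and passed the filter through the knockdown libraries (lowest 1.11 in siMYCN). These counts and medians thus hold only for the genes that passed the filter. The sums of that list were 265 to 273 CPM in siCTR, 319 to 349 in siMYCN and 450 to 512 in siHAND2, led by FN1, PDGFRB and THY1, while 2 of its genes stayed under 1 CPM in every library. The sums of the Schwann and glial list were 2.25 to 2.97 CPM in siCTR, 3.19 to 3.44 in siMYCN and 2.60 to 2.75 in siHAND2. Those of the endothelial and immune list were 0.753 to 1.45, 1.02 to 1.60 and 0.970 to 1.62 CPM. The part of these shifts in the granin values was not tested.

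SCG2 encodes secretogranin II, the precursor of secretoneurin and a core constituent of dense-core vesicles (chromosome 2, 223596940 to 223602361, GRCh38). Replicates 1, 2 and 3 of siCTR held 165, 158 and 156 CPM of it, those of siMYCN 229, 223 and 247, and those of siHAND2 533, 451 and 484. All 3 groups were apart, with siHAND2 above siMYCN and siMYCN above siCTR. The siHAND2 mean was 3.07 times the siCTR mean, which is 1.61 ± 0.06 on the log2 scale (fold change ± standard error, limma adjusted p = 6.83e-12), and it was the 33rd largest rise of the 14495 genes tested. In siMYCN the mean was 1.46 times that of siCTR (0.54 ± 0.06, adjusted p = 1.87e-06). The knockdowns themselves differed by 1.07 (adjusted p = 2.93e-10). Both rises and their difference stayed past the threshold in each of the 18 alternative analyses, with values of 1.54 to 1.66 in siHAND2 and 0.48 to 0.57 in siMYCN.

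CHGB encodes chromogranin B (chromosome 20, 5911510 to 5925353) and moved in 1 knockdown. Its CPM values were 246, 237 and 208 for siCTR, 381, 376 and 367 for siMYCN, and 251, 207 and 218 for siHAND2. The siMYCN libraries were all above the other 6, and the siCTR and siHAND2 libraries overlapped. CHGB rose by 0.70 ± 0.07 in siMYCN on the log2 scale (limma adjusted p = 8.52e-07), to 1.62 times the siCTR mean. In siHAND2 the difference from siCTR was -0.03 (95% interval -0.17 to 0.11, adjusted p = 0.738). Set against siMYCN, the siHAND2 value was -0.73 (adjusted p = 2.72e-07), and this difference and the rise in siMYCN were called in all 18 alternatives.

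CHGA, which encodes chromogranin A, the precursor of vasostatin and catestatin, was not called in any comparison (chromosome 14, 92923150 to 92935285). The control libraries held 384, 380.3 and 354 CPM of CHGA, the MYCN knockdown 413, 358 and 375, and the HAND2 knockdown 387, 348 and 327. The 3 groups overlapped. The log2 difference from siCTR was 0.03 for siMYCN, with a 95% interval of -0.10 to 0.16 (limma adjusted p = 0.707), and -0.08 for siHAND2, with one of -0.21 to 0.05 (0.369). Among all genes tested, 86.4% had a larger absolute change in siMYCN and 66.8% in siHAND2. The difference between siHAND2 and siMYCN was -0.11 (adjusted p = 0.195), and it passed the threshold without siHAND2 replicate 1 (-0.18, adjusted p = 0.0337) and with replicate number as a block (adjusted p = 0.0478).

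VGF encodes a neurotrophin-inducible precursor of several peptides (chromosome 7, 101162509 to 101165569). VGF stood at 77.5, 72.5 and 64.0 CPM with the control siRNA, at 91.3, 77.0 and 80.6 CPM with siMYCN, and at 57.9, 57.5 and 44.2 CPM with siHAND2. The siHAND2 libraries lay below the other 6, and the highest siCTR library lay above the lowest siMYCN library. VGF fell by 0.42 on the log2 scale with siHAND2, with a standard error of 0.09 (limma adjusted p = 0.00243), to 0.746 times the siCTR mean, and this call held in all 18 alternatives. In siMYCN the value was 0.22 (95% interval 0.02 to 0.41, adjusted p = 0.0782), which did not pass; without siHAND2 replicate 3, the lowest library, the shared spread was smaller and it did (adjusted p = 0.0149). The call was also made in a fit of siMYCN and siCTR alone (adjusted p = 0.0191). The knockdowns differed by -0.64 (adjusted p = 5.88e-05). SCG2 and VGF, both granin cargo genes, were therefore called in opposite directions in siHAND2.

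**Figure D2:**
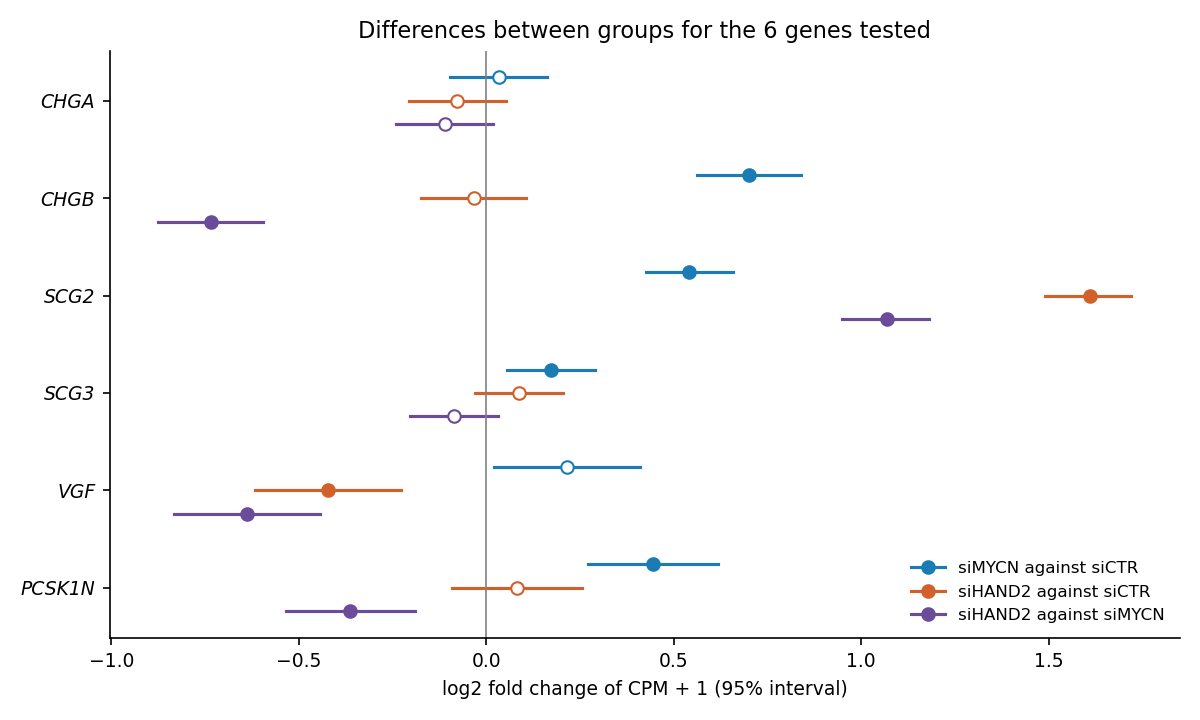
Log2 fold changes of CPM + 1 for the 6 genes tested, with 95% intervals from the linear model, in the 3 comparisons; filled points passed an adjusted p of 0.05 and open points did not. SCG2 lies at 1.61 in siHAND2 against siCTR, CHGB at 0.70 in siMYCN against siCTR and VGF at -0.42 in siHAND2 against siCTR.

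PCSK1N (chromosome X, 48831096 to 48835610) rose in siMYCN. Its CPM values were 25.5, 24.6 and 22.7 for siCTR, 34.5, 33.2 and 32.2 for siMYCN, and 28.5, 27.4 and 21.7 for siHAND2. The siMYCN libraries were above the other 6, and siHAND2 overlapped siCTR because of its replicate 3. The rise in siMYCN was 0.44 ± 0.08 (limma adjusted p = 0.000515), to 1.37 times siCTR, and was called in all 18 alternatives. In siHAND2 the difference from siCTR was 0.08 (adjusted p = 0.482). Without siHAND2 replicate 3 it was 0.20 and passed (adjusted p = 0.0216). The knockdowns differed by -0.36 (adjusted p = 0.00329).

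SCG3 (chromosome 15, 51681492 to 51721026) changed little. The siCTR libraries held 114, 108 and 107 CPM of SCG3, the siMYCN libraries 117, 126 and 129, and the siHAND2 libraries 119, 107 and 124. The siMYCN libraries lay above those of siCTR by a small margin, and siHAND2 overlapped both. The rise of 0.17 ± 0.06 in siMYCN (limma adjusted p = 0.0225) was the least stable of the 4. It was lost after median-ratio scaling (0.11, adjusted p = 0.11), after quantile normalization (0.12, adjusted p = 0.0934) and with no intensity trend (adjusted p = 0.0726). Nor did it pass without siCTR replicate 2 (0.16), siCTR replicate 3 (0.16), siMYCN replicate 2 (0.16) or siMYCN replicate 3 (0.145), with adjusted p-values of 0.0754, 0.0751, 0.0716 and 0.0938. In siHAND2 it differed by 0.09 (adjusted p = 0.259).

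SCG5 and PCSK1 did not reach 1 CPM in any library and were not tested with the others. SCG5 (chromosome 15, 32641676 to 32697098) stood at 0.428, 0.150 and 0.190 CPM with the control siRNA, at 0.443, 0.575 and 0.720 CPM with siMYCN, and at 0.263, 0.239 and 0.213 CPM with siHAND2, or about 4 to 21 reads a library. The siMYCN libraries were the highest, with siCTR replicate 1 just below the lowest of them. When all 25084 genes were fitted with no filter, the SCG5 difference in siMYCN was 0.33 (limma, adjusted p = 0.0182). That of siHAND2 against siMYCN was -0.35 (limma, adjusted p = 0.0175). The added 1 shrinks these differences: the siMYCN mean of SCG5 was 2.26 times that of siCTR, a ratio that rests on few reads. PCSK1 (chromosome 5, 96390333 to 96434143) ranged over 0.0375 to 0.190 CPM for siCTR, 0.0806 to 0.274 for siMYCN and 0.0399 to 0.197 for siHAND2, or about 1 to 8 reads. Its groups overlapped, and no difference was detectable at this depth (0.11 for siMYCN, limma adjusted p = 0.412; 0.02 for siHAND2, adjusted p = 0.88).

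Added together, the 8 genes in the table held 969 ± 50.7 CPM in siCTR, 1231 ± 36.4 CPM in siMYCN and 1265 ± 97.6 CPM in siHAND2. The sums were similar in the knockdowns, but their makeup was not. SCG2 gave 16.5 ± 0.503% of the summed reads in siCTR, 18.9 ± 0.994% in siMYCN and 38.7 ± 1.03% in siHAND2. CHGB gave 23.8 ± 0.835%, 30.4 ± 0.920% and 17.8 ± 0.478%, and CHGA gave 38.5 ± 0.499%, 31.0 ± 1.42% and 28.0 ± 1.13%. SCG2 was thus the largest single contributor in each siHAND2 library, and CHGA in each siCTR library. These are shares of reads, which also reflect transcript length, and no test was made of the sums.

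**Figure D3:**
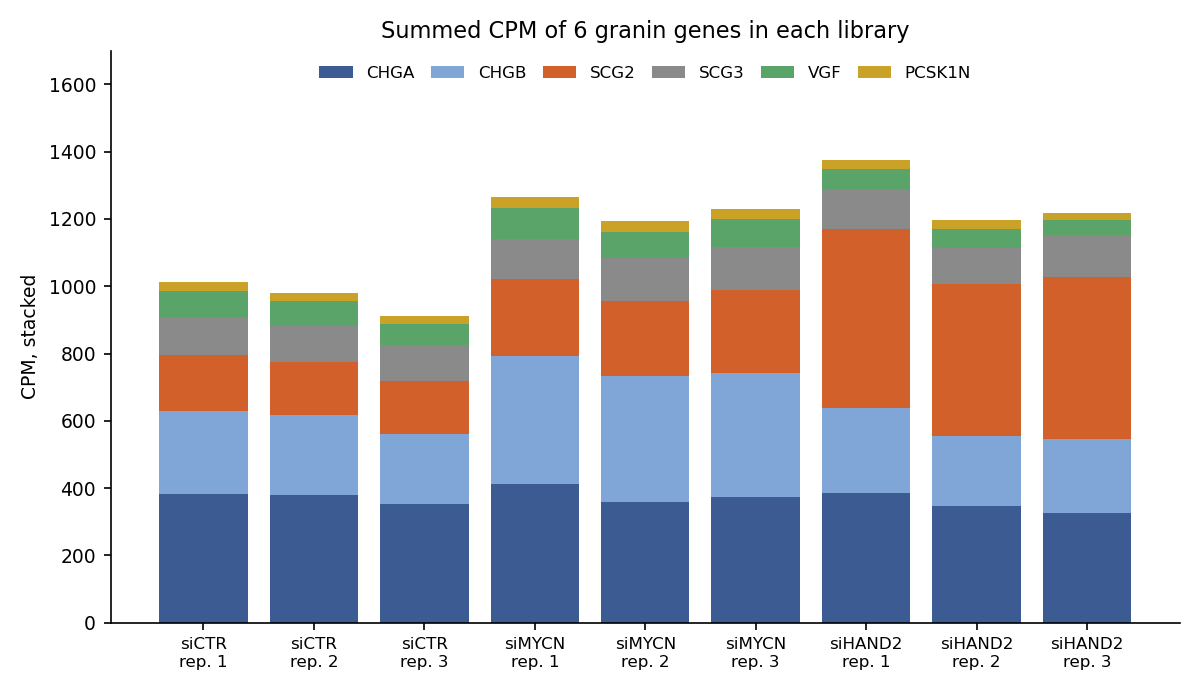
CPM of 6 granin genes stacked for each of the 9 libraries (linear axis from 0); SCG5 and PCSK1 are too low to show. The SCG2 segment makes up 37.6% to 39.7% of the sum in the siHAND2 libraries and 16.1% to 17.1% in the siCTR libraries.

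Other processing enzymes were read from a list of 11, of which 7 were tested. Over all genes tested, 24.5% rose and 11.4% fell in siMYCN. Of the 7 enzymes, 3 rose and none fell, with a median log2 fold change of 0.05, beside 0.06 over all genes. These were FURIN (0.32, limma, adjusted p = 0.00953), the convertase of the trans-Golgi network, PCSK7 (0.30, adjusted p = 0.000773) and CPE (0.16, adjusted p = 0.0409). Without siCTR replicate 3 this count was 1, with FURIN (0.24, adjusted p = 0.0549) and CPE (0.14, adjusted p = 0.127) lost. The CPE call was lost in 10 of the 18 alternatives, both other scalings among them. Falls in siMYCN were called under other scalings. These were PAM after median-ratio scaling (-0.15, limma adjusted p = 0.0465) and PCSK6 after quantile normalization (-0.32, limma adjusted p = 0.0401). In siHAND2 2 rose and 2 fell (median 0.04, beside 0.04 over all genes), where 18.1% of all genes tested rose and 11.8% fell. CPE, carboxypeptidase E, rose from 112 ± 3.20 to 162 ± 16.8 CPM (0.52, adjusted p = 4.93e-06) and PCSK7 by 0.23 (adjusted p = 0.00591). PAM, the amidating enzyme, fell from 96.8 ± 3.82 to 63.7 ± 6.30 CPM (-0.60, adjusted p = 8.21e-07). The other fall was that of PCSK6 (-0.38, limma adjusted p = 0.017), a convertase of the constitutive pathway, named after its value was seen. It was lost without siCTR replicate 1, siCTR replicate 2 or siHAND2 replicate 3 (adjusted p up to 0.0788). Carboxypeptidase E and the amidating enzyme, which act one after the other on the same peptides, were therefore called in opposite directions in siHAND2. In siHAND2 against siMYCN 1 was higher, CPE (0.36, adjusted p = 0.000228), and 2 were lower, PAM (-0.51, adjusted p = 5.30e-06) and FURIN (-0.27, adjusted p = 0.0354). Over all genes tested, 11.4% were higher and 15.5% lower in that comparison. The FURIN call was lost in 8 of the 18 alternatives, among them median-ratio scaling (adjusted p = 0.0522) and quantile normalization (0.0554).

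Dense-core vesicle machinery was read from a list of 22 genes, 17 of them tested. In siMYCN 12 rose and none fell, and the median log2 fold change was 0.37, beside 0.06 over all genes. Of all genes tested, 24.5% rose and 11.4% fell. CYB561, the cytochrome that supplies electrons for ascorbate inside the vesicle, rose from 4.08 ± 0.274 to 11.1 ± 1.12 CPM (1.25, limma, adjusted p = 1.47e-07). HID1, which takes part in vesicle formation at the Golgi, rose from 7.34 ± 1.33 to 16.2 ± 0.663 CPM (1.06, adjusted p = 7.24e-07). SYT4, a synaptotagmin found on these vesicles, rose from 36.6 ± 1.09 to 68.6 ± 5.44 CPM (0.89, adjusted p = 1.10e-07). The number called in siMYCN, in either direction, stayed between 11 and 13 in the alternatives. It included a fall of RAB3A after quantile normalization (-0.227, limma adjusted p = 0.0453) and without siCTR replicate 3 (-0.235, limma adjusted p = 0.0449).

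In siHAND2 18.1% of all genes tested rose and 11.8% fell. The vesicle list gave 4 rises and 4 falls, with a median of 0.05 beside 0.04 over all genes. Of those outside the naming rule, named after their values were seen, RAB3B rose by 0.82 (limma adjusted p = 5.49e-05). SLC18A1, a vesicular monoamine transporter gene, changed by -0.75 (limma adjusted p = 0.000325), and by -1.56 to -0.24 over the alternatives. This gene averaged 1.36, 4.62 and 0.403 CPM in siCTR, siMYCN and siHAND2, near the added 1. It had risen in siMYCN (1.24, limma adjusted p = 2.26e-06). The rises of HID1 and CCDC186 were less stable. HID1 (0.27, adjusted p = 0.0481) lost its call in 13 of the 18 alternatives, both other scalings among them, and was at 0.16 without siCTR replicate 3. CCDC186 (0.24, adjusted p = 0.0396) lost its call in 8, both other scalings among them. SYTL4, a partner of RAB27, rose by 0.55 (limma, adjusted p = 5.29e-05). The 4 genes that rose here had also been called higher in siMYCN, SYTL4 by 0.66 (limma adjusted p = 8.06e-06) and RAB3B by 1.02 (5.42e-06). In siMYCN HID1 was at 1.06 and CCDC186 at 0.22 (limma adjusted p = 0.045), the latter a call lost in 9 of the 18 alternatives. SYT4 fell by 0.49 (adjusted p = 3.92e-05), the vesicle GTPase gene RAB3A by 0.52 (adjusted p = 0.000195) and CYB561 by 0.34 (adjusted p = 0.0166). The count of 8 was 5 without siHAND2 replicate 2 and 5 with no filter on low values. The CYB561 call was lost without siHAND2 replicate 2 (-0.265, adjusted p = 0.0822), without siCTR replicate 3 (-0.30, adjusted p = 0.0582) and with no filter (adjusted p = 0.0536). In siHAND2 against siMYCN none was higher and 8 were lower (median -0.21, beside -0.01 over all genes). SLC18A1 stood at -2 (limma adjusted p = 4.67e-09), and at -3.25 to -0.83 over the alternatives. CYB561 was at -1.59 (adjusted p = 2.91e-09) and SYT4 at -1.38 (adjusted p = 1.48e-10). Over all genes tested, 11.4% were higher and 15.5% lower in that comparison.

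Of 59 other peptide precursor genes, 30 were read and 11 tested. In siMYCN 4 rose and none fell (median 0.09, beside 0.06 over all genes), and in siHAND2 none rose and 4 fell (median -0.18, beside 0.04). Of all genes tested, 24.5% rose and 11.4% fell in siMYCN, and 18.1% rose and 11.8% fell in siHAND2. VIP, the precursor of vasoactive intestinal peptide and the most abundant of the list, averaged 857 ± 38.3 CPM in siCTR, 1148 ± 57.4 in siMYCN (a rise of 0.42, limma adjusted p = 5.97e-06) and 746 ± 26.2 in siHAND2 (a change of -0.20, adjusted p = 0.00488). CALCB, a calcitonin gene-related peptide gene, measured 10.9 ± 0.991, 17.2 ± 1.01 and 6.30 ± 0.566 CPM, changes of 0.62 (adjusted p = 3.42e-05) and -0.70 (adjusted p = 1.06e-05). The remaining calls, named after their values were seen, were TAC3 in siMYCN (0.48) and ADM, the adrenomedullin gene, in siHAND2 (-0.43). VIP and CALCB thus rose in siMYCN and fell in siHAND2. ADCYAP1, the precursor of PACAP, fell in siHAND2 by 0.37 (adjusted p = 5.61e-05), and NUCB2, the precursor of nesfatin, rose in siMYCN by 0.27 (adjusted p = 0.00356). In siHAND2 against siMYCN 5 of the 11 were lower and none was higher (median -0.20), with VIP at -0.62 (adjusted p = 4.60e-08). Over all genes tested, 15.5% were lower and 11.4% higher in that comparison. Of 5 genes for NPY receptors and the peptidase DPP4, only NPY2R was read, and it stayed under 1 CPM in every library (highest 0.583 CPM).

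**Figure D4:**
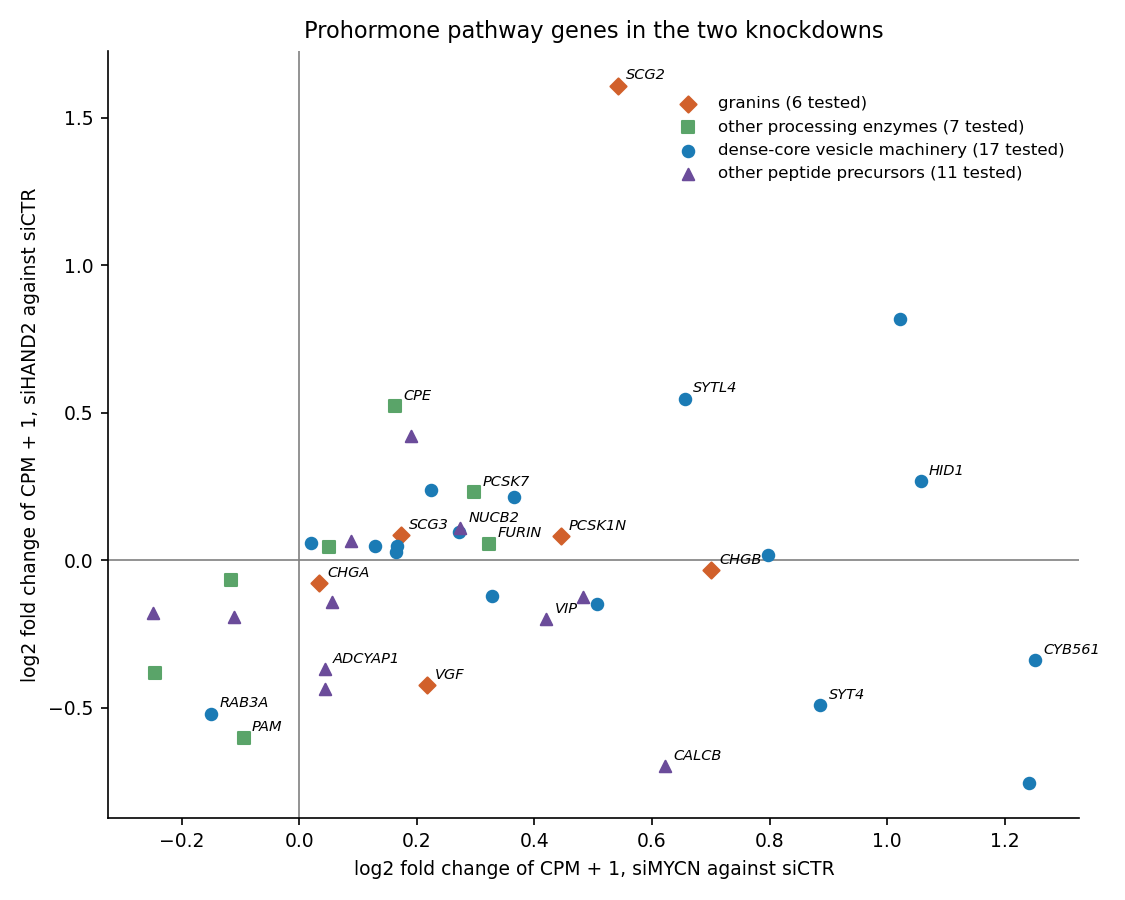
Log2 fold changes of CPM + 1 in siMYCN (horizontal) and siHAND2 (vertical), each against the same siCTR libraries, for the tested granins and 3 lists of related genes. A point is a gene, and named points are the granins and the genes picked by the naming rule. SCG2 is highest on the vertical axis at 1.61, CYB561 is farthest right at 1.25, and CALCB and SYT4 lie to the right of 0 and below it.

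The genes whose pair of log2 fold changes lay nearest to that of SCG2 (0.54 in siMYCN and 1.61 in siHAND2) were sought among 11195 other genes averaging 5 CPM or more. The nearest was INHBA, an activin subunit gene, at 0.43 and 1.56 (distance 0.13), followed by STARD5, a lipid transfer protein gene, at 0.51 and 1.81 (distance 0.20). STARD5 is a low gene in siCTR, and its distance from SCG2 was 0.55 with a pseudocount of 0.1 and 0.56 with one of 5, where its siMYCN value was 0.67 and 0.26. The distance of INHBA was 0.11 with a pseudocount of 0.1 and 0.23 with one of 5. No gene came within 0.10 of SCG2, but its rise in siHAND2 ranked 33 of 14495, so few genes had a rise of that size. For CHGB (0.70 and -0.03), 9 genes lay within 0.10, and the nearest were DKK3, which encodes a secreted Dickkopf family protein, at 0.73 and -0.01, and the bicarbonate transporter gene SLC4A8 at 0.66 and -0.05. Likeness here rests on 2 differences per gene over the same 9 libraries.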

How the data were processed

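RNA sequencing of 9 LAN5 libraries was analysed from 1 table that the authors deposited, whose CPM values carry a constant of 0.0001. Alignment with STAR is named in the file headers. STAR 2.5.1, Partek and the builds hg19 and GRCh37 are named in the submitters' processing notes, with no role given. The coordinates in the table were nevertheless GRCh38: of 18215 symbols matched to RefSeq genes, 91.4% had a start within 5000 bp. The counting rule, its use of strand and the annotation are not given in the sources used here. SCG3 overlaps an antisense gene listed at under 0.2 CPM on average.

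Read depth was taken from the smallest step between low CPM values. Only 79.4% to 80.9% of low values (20 steps or fewer) lay within 0.02 of a whole number of steps, so no count model was used. Counting error at 1 CPM is a coefficient of variation of 17.5% to 21.8%; it covers counting error only.

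The 14495 genes that reached 1 CPM in 3 or more libraries were tested on log2(CPM + 1) with limma 3.58.1 in R 4.3.3, with 1 mean per group over all 9 libraries, an intensity trend, two-sided tests and Benjamini-Hochberg adjustment over all genes at a threshold of 0.05. The model was also run on simulated whole counts, scaled to CPM, in which a small share of genes changed, in siMYCN only. The deposited values differ from these in the share of genes called and in wholeness, so nothing about the calls is drawn from that run. Levels per kilobase used canonical GENCODE transcript lengths matched by symbol. Promoters came from RefSeq (GRCh38.p14).

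The members and the lists were chosen with earlier results of these data known. From each related list, the text names up to 3 rises and 3 falls per comparison with siCTR, among called genes that averaged 5 CPM or more and whose groups did not overlap. For members that changed by at least 0.5, the 2 genes nearest by Euclidean distance are also named. Alternatives left out each library in turn, replaced the pseudocount (0.1 or 5), the filter (none or 5 CPM) or the scaling (median-ratio or quantile), dropped the intensity trend, fitted only the 2 groups compared, or added a replicate block.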

Additional observations from a re-analysis of the deposited data

How the results depend on the processing

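Across 18 alternatives the number of granin and processing genes called stayed between 3 and 5 in siMYCN against siCTR (4 as reported), 2 and 3 in siHAND2 against siCTR (2) and 4 and 5 in siHAND2 against siMYCN (4). Leaving out 1 library at a time gave the same ranges. The number of all genes called stayed within 1.5 times the reported count, at 4017 to 5895, 3079 to 5089 and 2923 to 4689, with the lowest values without siCTR replicate 2, siCTR replicate 2 and siMYCN replicate 1. No call reversed. The uncalled value of CHGA in siMYCN changed sign in 3 alternatives (lowest -0.03) and that of CHGB in siHAND2 in 2 (highest 0.02). Same-numbered libraries mostly deviated together: the correlations of their deviations from the group means, across genes, were -0.04 to 0.31. In both comparisons with siCTR, each knockdown library matched the siCTR library of its own number best (0.08 to 0.18 for siMYCN, 0.04 to 0.17 for siHAND2). In siHAND2 against siMYCN, replicates 1 (0.31) and 3 (0.17) did so and replicate 2 (-0.04) did not. The main fit leaves replicate number out, and the counts of all genes called were highest with it as a block. With the replicate number as a block, VGF in siMYCN passed (0.22, limma, adjusted p = 0.00526), as did CHGA in siHAND2 against siMYCN. The 5 other peptide precursors called in siHAND2 against siMYCN were 8 with no filter and 3 with a filter of 5 CPM, since the filter sets how many are tested. Depth limits SCG5 and PCSK1, which rest on at most 21 and 8 reads a library.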
